A study of Homo sapiens with 74 samples.

Results

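The 7 genes described here encode the histone methyltransferase DOT1L, its partners and the readers of acylated histones that carry a YEATS domain. They are DOT1L, MLLT1 (the gene of ENL), MLLT3 (AF9), MLLT6 (AF17), MLLT10 (AF10), YEATS2 and YEATS4 (GAS41), taken by symbol from the 28131 genes of the count tables. DOT1L places methyl groups on lysine 79 of histone H3 in the body of transcribed genes. MLLT1 and MLLT3 are paralogues whose YEATS domain binds acylated lysines of histone H3 and whose end binds either DOT1L or the AFF scaffolds of the super elongation complex. MLLT6 and MLLT10 are a second pair of paralogues, which bind DOT1L through a coiled coil, and MLLT10 is needed for full methylation. YEATS2 reads histone acylation in the ATAC acetyltransferase complex, and YEATS4 does so in the SRCAP and TIP60 complexes. MLLT1, MLLT3, MLLT6 and MLLT10 are all fusion partners of KMT2A in leukaemia.

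Messenger RNA was sequenced in established human leukaemia cell lines, K562, from a chronic myeloid leukaemia in blast crisis, and HEL, from an erythroleukaemia. K562 had a control group, a group with knockout (KO) of DOT1L and a group with knockout of ENL. HEL had a control group and a group with knockdown (KD) of DOT1L. The K562 groups held 2 distinct control libraries, 3 DOT1L KO and 3 ENL KO libraries, and each HEL group held 2, so that 13 of the 74 samples of the series were RNA-seq libraries. The third K562 control column was the same as the second in every gene and was counted with it as 1 library. How the knockouts and the knockdown were made, whether a knockout is 1 clone and where the lesion lies are not given in the sources used here. The labels do not say that replicates were separate cultures, so the p-values measure the spread between these libraries, which may be technical. Counting error alone gives a chi-square per degree of freedom near 1 between libraries of a group. It was 1.45 in the HEL controls and 1.31 in the KD, against 4.05 to 9.64 between distinct K562 libraries. Calls in HEL thus rest on a narrower spread than calls in K562.

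Library totals ran from 15404944 to 29236703 counts in K562 and from 12151495 to 12811688 in HEL. A sequencing lane is named in the labels of the K562 controls and DOT1L KO but not of the ENL KO. Whether the ENL KO formed a separate batch is not known, and such a batch could not be told apart from ENL knockout. All 9 erythroid markers had at least 5 CPM (counts relative to the TMM-scaled library total) in the 3 K562 groups and the HEL KD, and 8 of 9 in the HEL control. Their summed level was 6305 to 6738 CPM in the K562 controls, 9666 to 10143 CPM with DOT1L KO and 8172 to 8314 CPM with ENL KO. It was 6251 to 6376 CPM in the HEL controls and 8546 to 9196 in the KD. The 6 megakaryocytic markers summed to 2399 to 2450 CPM in the HEL controls and to 1783 to 1803 CPM in the KD. The part of these shifts in the results below was not tested. In bulk RNA, fewer cells of a type and less RNA per cell cannot be told apart.

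MLLT1 and MLLT3 are set side by side first because the pair showed the widest contrast between the cell lines. MLLT1 lies on chromosome 19 (6210381 to 6279948, hg38, minus strand, 69.6 kb) with 12 merged exons of 4505 bases in all. MLLT3 lies on chromosome 9 (20341665 to 20622543, minus strand) and spans 280.9 kb, the longest of the 7, with 12 merged exons of 6987 bases. Their promoters follow as the bases upstream of the RefSeq start (GRCh38.p14) that lie outside the listed gene, 5′ to 3′ on the minus strand, 250 for MLLT1 at chr19:6279976-6280225 and 206 for MLLT3 at chr9:20622544-20622749. Capitals mark CCAAT boxes (CCAAT or ATTGG) and GC boxes (GGGCGG or CCGCCC) on either strand, and neighbouring GC boxes of MLLT3 overlap.
MLLT1: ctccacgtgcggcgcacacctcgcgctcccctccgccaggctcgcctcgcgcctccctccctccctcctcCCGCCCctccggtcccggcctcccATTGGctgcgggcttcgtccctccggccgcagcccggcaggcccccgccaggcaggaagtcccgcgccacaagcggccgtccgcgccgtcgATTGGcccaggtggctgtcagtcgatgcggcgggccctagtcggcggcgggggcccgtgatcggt
MLLT3: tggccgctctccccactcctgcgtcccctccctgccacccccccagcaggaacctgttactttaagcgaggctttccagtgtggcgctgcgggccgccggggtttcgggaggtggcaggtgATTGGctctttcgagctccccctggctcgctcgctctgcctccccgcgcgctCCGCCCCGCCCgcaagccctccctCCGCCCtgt

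Over the 250 bases before the start, MLLT1 held 34 CG dinucleotides, more than 93.2% of 35116 RefSeq promoters, and MLLT3 held 24, more than 76.3%. The median over all promoters was 11. MLLT1 had 2 CCAAT boxes and 1 GC box, and MLLT3 had 1 CCAAT box and 3 GC boxes. A CCAAT box was found in 32.0% of all promoters and a GC box in 42.6%. Neither window held the GATAA motif (either strand), which 20.4% of promoters hold. Both windows were thus rich in CG, with 77.2% GC in MLLT1 and 72.0% in MLLT3. These matches describe letters only.

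MLLT3 was at or next to 0 counts in K562 and was the highest of the 7 genes per kb in HEL. The K562 controls had 2 and 1 counts of MLLT3, the DOT1L KO libraries 1, 0 and 1, and the ENL KO libraries 1, 1 and 0. All 8 libraries were thus under the floor of 3 counts, the limit that a count of 0 allows, which was worth 0.101 to 0.195 CPM per library, and the gene did not enter the K562 test. The HEL controls had 7209 and 7524 counts of MLLT3, and the KD libraries had 6301 and 5965. These are 576 and 597 CPM in the controls against 501 and 485 CPM in the KD, with both KD libraries below both controls. MLLT3 fell by 0.25 on the log2 scale (SE 0.030, adjusted p 4.37e-10 in the quasi-likelihood test of edgeR, Benjamini-Hochberg adjusted over all genes tested). No fold change of MLLT3 was computed in K562, since all libraries were under the floor.

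MLLT1, by contrast, was counted in every library of both lines. It had 214 and 219 CPM in the K562 controls and 227, 219 and 216 CPM in the DOT1L KO. In the ENL KO, where it is the targeted gene, MLLT1 had 153, 157 and 154 CPM. All ENL KO libraries lay below all others of K562, while the DOT1L KO overlapped the control. MLLT1 fell by 0.48 on the log2 scale in the ENL KO (SE 0.051, edgeR adjusted p 5.26e-06). Each count is a single sum over all exons of the gene, and single exons were not looked at. Such a sum does not check the loss of the protein, since the place of the lesion is not given. In the DOT1L KO the log2 fold change of MLLT1 was 0.03 (SE 0.051, edgeR adjusted p 0.659). In HEL, MLLT1 had 93.0 and 84.6 CPM in the controls and 114 and 121 CPM in the KD, both KD libraries above both controls. MLLT1 rose by 0.40 in the KD (SE 0.048, edgeR adjusted p 5.72e-10). The ENL KO separated from the DOT1L KO as well, with MLLT1 higher by 0.51 when DOT1L was the gene knocked out (SE 0.046, edgeR adjusted p 4.24e-07).

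The paralogues were compared as the share of MLLT3 in the summed level of both, in CPM per kb of exon. The HEL controls had shares of 79.97% and 81.98%, and the KD libraries had 73.94% and 72.17%. Both KD libraries were lower, with a difference of the means of -7.92 percentage points and an exact two-sided permutation p of 0.333, the smallest that 2 against 2 libraries allow. The summed level of the pair was 103.7 ± 0.849 CPM per kb in the HEL control and 96.6 ± 0.552 in the KD (SD, n = 2 each). In K562 the share of MLLT3 ran from 0 to 0.0281%, so the summed level was that of MLLT1. It was 48.0 ± 0.785 CPM per kb in the control (SD, n = 2), 49.0 ± 1.32 with DOT1L KO and 34.3 ± 0.425 in the ENL KO (SD, n = 3 each). The difference between ENL KO and control had an exact two-sided permutation p of 0.2, again the smallest possible.

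**Figure D1:**
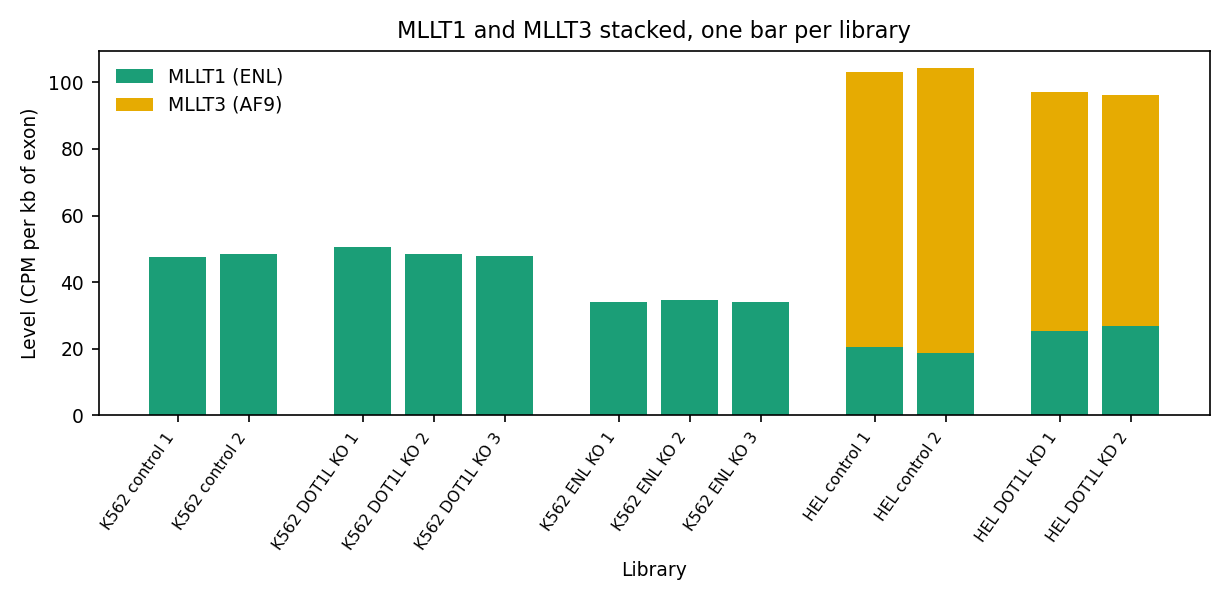
Level of MLLT1 (green) and MLLT3 (yellow) in CPM per kb of exon, stacked, with 1 bar per library from a baseline of 0. MLLT3 makes up 72.17% to 81.98% of each HEL bar and at most 0.0281% of each K562 bar, and the 3 ENL KO bars are the lowest.

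DOT1L, the methyltransferase, lies on chromosome 19 (2164149 to 2232578, hg38, plus strand, 68.4 kb) with 28 merged exons of 7436 bases. It had 269.8 and 256 CPM in the K562 controls, 186, 176 and 184 CPM in the DOT1L KO, and 243, 265 and 245 CPM in the ENL KO. The DOT1L KO libraries lay below all others, and the ENL KO overlapped the control. DOT1L fell by 0.53 on the log2 scale in its own KO (SE 0.057, edgeR adjusted p 4.09e-06). In the ENL KO its log2 fold change was -0.07 (SE 0.057, edgeR adjusted p 0.39). The count over the whole gene does not check the knockout, for the same reason as for MLLT1. DOT1L in HEL had 97.5 and 87.4 CPM in the controls and 29.1 and 30.0 CPM in the KD, a drop in both KD libraries. It fell by 1.64 on the log2 scale (SE 0.064, edgeR adjusted p 2.22e-28), and 54 of the 12635 genes tested had a lower fold change. In the K562 DOT1L KO, 1667 of 14301 genes had a lower fold change than DOT1L, and in the ENL KO 2684 had a lower one than MLLT1.

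The 3′ neighbour PLEKHJ1 overlaps DOT1L on the opposite strand over 661 bases, or 8.89% of the exonic bases of DOT1L. The libraries kept strand, but the strand setting of the counting is not stated, so reads of the shared stretch cannot be assigned with certainty. PLEKHJ1 rose by 0.38 (SE 0.061, edgeR adjusted p 0.000181) in the K562 DOT1L KO and by 0.46 (SE 0.096, edgeR adjusted p 4.77e-05) in the HEL KD, against the direction of DOT1L. Of the 5 tested genes on each side of DOT1L, 4 of 10 were past the threshold of adjusted p 0.05 in the K562 KO (2 higher, 2 lower), where 51.1% of all 14301 tested genes were. In the HEL KD 8 of 10 were (5 higher, 3 lower), against 55.0% of 12635. Of the 10 around MLLT1, 2 were past it in the ENL KO, both higher, against 41.0% of all genes. RFX2, a transcription factor gene of the regulatory factor X family, was the nearest tested neighbour at lower positions than MLLT1. It ended at 6110653, while MLLT1 begins at 6210381. RFX2 rose by 1.35 in the ENL KO (SE 0.10, edgeR adjusted p 1.93e-07). It was the only neighbour past the threshold whose log2 fold change was 1 or more in size.

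MLLT10, the AF10 cofactor of DOT1L, lies on chromosome 10 (21533349 to 21743630, plus strand) and spans 210.3 kb with 30 merged exons. It had 77.7 and 81.2 CPM in the K562 controls, 68.5, 77.5 and 76.7 CPM in the DOT1L KO, and 74.3, 82.1 and 83.9 CPM in the ENL KO. All 3 DOT1L KO libraries were below both controls, by little in 2 of them. The log2 fold change of MLLT10 was -0.10 (SE 0.073, edgeR adjusted p 0.291) in the DOT1L KO and 0.01 (SE 0.073, edgeR adjusted p 0.924) in the ENL KO. In HEL it had 164 and 165 CPM in the controls and 156 and 143 CPM in the KD, both lower. MLLT10 fell by 0.13 in the HEL KD (SE 0.041, edgeR adjusted p 0.00484), but the call rested on 1 library. Without KD replicate 2 the value was -0.08 (edgeR adjusted p 0.236), and it also missed the threshold with upper-quartile scaling (-0.06, edgeR adjusted p 0.205), with DESeq2 (-0.14, adjusted p 0.0659) and with no filter on low counts (-0.14, edgeR adjusted p 0.0533).

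MLLT6, the paralogue of MLLT10, has uncertain counts. It lies on chromosome 17 (38705620 to 38729803, plus strand, 24.2 kb) and is listed a second time on an alternate contig of hg38, with 20 merged exons of 7500 bases in each place. The K562 controls had 170 and 127 counts of MLLT6, the DOT1L KO libraries 200, 197 and 155, and the ENL KO libraries 173, 131 and 98. The HEL controls had 2 and 0 counts and each KD library had 0, all under the floor, and was not tested. The K562 groups overlapped, with log2 fold changes of 0.14 (SE 0.17, edgeR adjusted p 0.541) in the DOT1L KO and 0.02 (SE 0.18, edgeR adjusted p 0.935) in the ENL KO. Of the 71 genes listed on that contig, 62 had at most 3 counts in every HEL library and 41 in every K562 library. Of all 1222 genes listed on a main chromosome and on another contig, 75.3% had no count in HEL and 46.8% none in K562, against 35.5% and 26.0% of the 26883 genes listed on main chromosomes only. The share of MLLT6 in the summed level of MLLT6 and MLLT10 was 3.83 ± 0.822% in the K562 control (SD, n = 2), 4.53 ± 1.01% with DOT1L KO and 3.86 ± 0.858% in the ENL KO (SD, n = 3 each), within the spread of the libraries. In HEL it was 0 to 0.0442%. The length used for MLLT6 was the 15000 bases of both copies, against 6803 for MLLT10, which lowers MLLT6 per kb and these shares. In raw counts the share was 9.23% and 6.89% in the K562 controls, 7.91% to 11.7% with DOT1L KO and 7.07% to 10.1% in the ENL KO. The level of MLLT6 and these shares are therefore uncertain, and whether reads that match both places were left out of the counts was not tested.

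YEATS4 (GAS41) was the member with opposite calls in the cell lines. It lies on chromosome 12 (69359710 to 69390870, plus strand) and is the shortest transcript of the 7, with 7 merged exons of 1501 bases. It had 26.8 and 26.2 CPM in the K562 controls, 34.2, 35.6 and 33.9 CPM in the DOT1L KO, and 31.2, 34.1 and 36.2 CPM in the ENL KO. All 6 knockout libraries were above both controls. In the DOT1L KO, YEATS4 rose by 0.38 (SE 0.081, edgeR adjusted p 0.00144) and by 0.35 in the ENL KO (SE 0.082, edgeR adjusted p 0.00404), comparisons that share the control libraries. Between the knockouts it differed by 0.03 (SE 0.071, edgeR adjusted p 0.705). In HEL it had 66.1 and 68.7 CPM in the controls and 55.3 and 56.7 CPM in the KD, both lower. YEATS4 fell by 0.27 in the HEL KD (SE 0.056, edgeR adjusted p 6.43e-05).

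YEATS2, the reader of the ATAC complex, lies on chromosome 3 (183697818 to 183812625, plus strand) and spans 114.8 kb with 33 merged exons. It overlaps the antisense gene YEATS2-AS1 over 104 bases, and the antisense gene had 7 counts over all K562 columns and 2 over all HEL columns. YEATS2 had 73.2 and 75.9 CPM in the K562 controls, 66.9, 69.0 and 72.9 CPM in the DOT1L KO, and 55.4, 59.4 and 64.0 CPM in the ENL KO. Both knockouts lay below the controls, the ENL KO lowest and apart from the DOT1L KO. YEATS2 fell by 0.33 in the ENL KO (SE 0.071, edgeR adjusted p 0.00234), while its value in the DOT1L KO was -0.10 (SE 0.070, edgeR adjusted p 0.257). The knockouts differed by 0.23 (SE 0.064, edgeR adjusted p 0.0075), with the DOT1L KO higher. In HEL the groups overlapped, with 409.7 and 426 CPM in the controls, 422 and 403 CPM in the KD and -0.02 as the log2 fold change (SE 0.032, edgeR adjusted p 0.655).

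**Figure D2:**
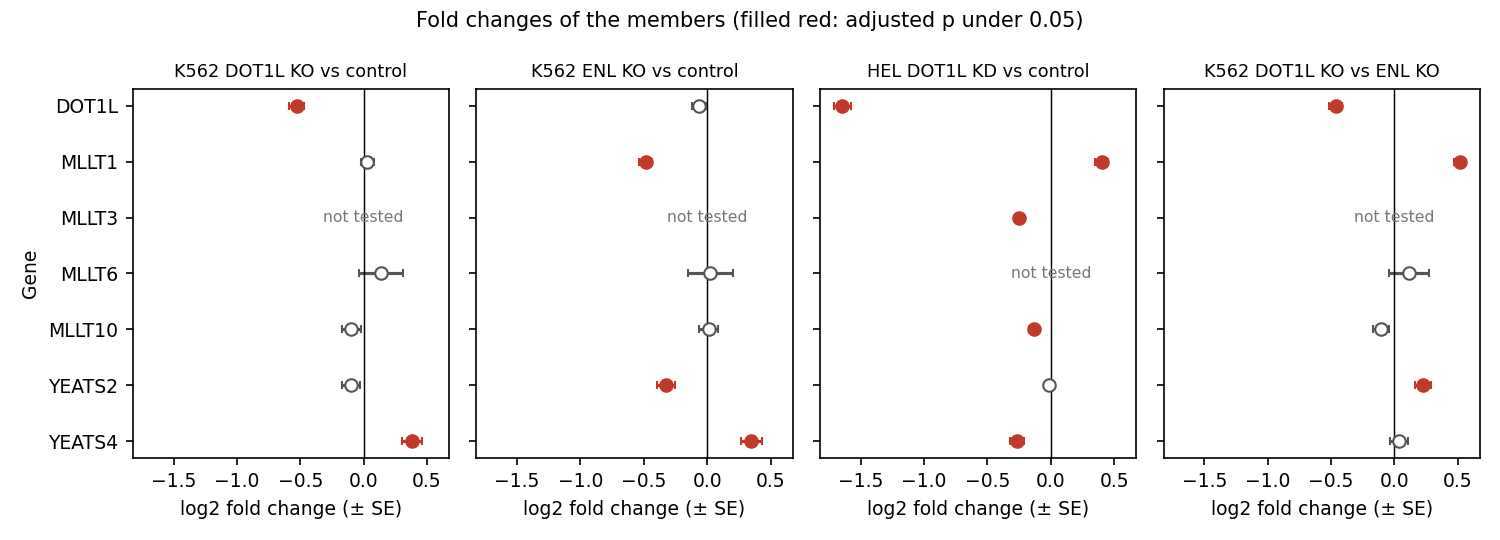
Log2 fold change of each member in 4 comparisons, with the standard error as bars. Filled red points passed an adjusted p of 0.05 in edgeR's quasi-likelihood test, and YEATS4 lies right of 0 in both K562 knockouts (0.38 and 0.35) and left of 0 in the HEL KD (-0.27).

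Of the 7 members, 6 passed the filter on low counts in each line, MLLT3 being left out in K562 and MLLT6 in HEL. In the K562 DOT1L KO 2 members passed the threshold, DOT1L itself lower and YEATS4 higher, where 51.1% of all tested genes passed (26.9% higher, 24.2% lower). In the ENL KO 3 passed, MLLT1 and YEATS2 lower and YEATS4 higher, where 41.0% of all genes did (18.8% higher, 22.2% lower). Between the knockouts 3 of 6 differed, with MLLT1 and YEATS2 higher and DOT1L lower in the DOT1L KO, where 60.2% of all genes did (31.8% higher, 28.3% lower). In the HEL KD 5 of 6 passed, MLLT1 higher and DOT1L, MLLT3, MLLT10 and YEATS4 lower, where 55.0% of all genes passed (27.0% higher, the others lower). The targeted genes are part of these counts. The changes of the members were mostly small. Their median absolute log2 fold change was 0.12 for DOT1L KO and 0.20 for ENL KO, against 0.29 and 0.25 over all tested genes. In the HEL KD it was 0.26 against 0.24.

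The effect of DOT1L depletion was then compared between the lines as an interaction in 1 fit of 9 libraries. In that fit HEL stands for knockdown and read counts and K562 for knockout and fragment counts, and these differences cannot be told apart from the line. The fit gave each gene 1 spread for both lines, while the biological coefficient of variation was 6.34% in K562 and 1.83% in HEL. The change in HEL minus that in K562 was -1.10 for DOT1L (SE 0.093, edgeR adjusted p 5.1e-09), 0.39 for MLLT1 (SE 0.081, edgeR adjusted p 0.000588) and -0.63 for YEATS4 (SE 0.097, edgeR adjusted p 2.19e-05). For MLLT10 it was -0.02 (SE 0.088, edgeR adjusted p 0.929) and for YEATS2 0.10 (SE 0.076, edgeR adjusted p 0.33). These 3 calls, which include the depleted gene, stand where 38.9% of 15367 genes passed (19.8% higher, 19.1% lower). MLLT3 and MLLT6 entered this fit as well, but each was at or under the floor in one line, so their terms are not given.

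Per kb of exon, the members stood in a different order in each line. In the K562 control MLLT1 was highest at 48.0 ± 0.790 CPM per kb, followed by DOT1L at 35.3 ± 1.32, YEATS4 at 17.7 ± 0.273, MLLT10 at 11.7 ± 0.360 and YEATS2 at 10.8 ± 0.269 (SD, n = 2). Each of these neighbours was separate in both libraries. MLLT1 exceeded 88.5% and DOT1L 84.3% of the tested genes, and YEATS2 60.0%, where the median gene had 6.78 CPM per kb. In the DOT1L KO the order of the 5 stayed, but DOT1L at 24.5 ± 0.692 came close to YEATS4 at 23.0 ± 0.604 (SD, n = 3 each), with the lowest DOT1L library and the highest YEATS4 library both at 23.7. MLLT10 and YEATS2 overlapped there. In the ENL KO MLLT1 at 34.3 ± 0.427 and DOT1L at 33.8 ± 1.61 overlapped (SD, n = 3). The HEL control led with MLLT3 at 84.0 ± 2.16 CPM per kb, then YEATS2 at 60.5 ± 1.65, YEATS4 at 44.9 ± 1.26, MLLT10 at 24.1 ± 0.0812, MLLT1 at 19.7 ± 1.31 and DOT1L at 12.4 ± 0.957 (SD, n = 2), all neighbours separate. MLLT3 exceeded 93.9% of the tested genes of HEL and DOT1L 59.4%. In the KD MLLT1 at 26.0 ± 1.06 stood above MLLT10 at 22.0 ± 1.35, the reverse of the control, and DOT1L was at 3.98 ± 0.0862 (SD, n = 2). The tables of the lines were scaled separately, so the levels are compared within a line.

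**Figure D3:**
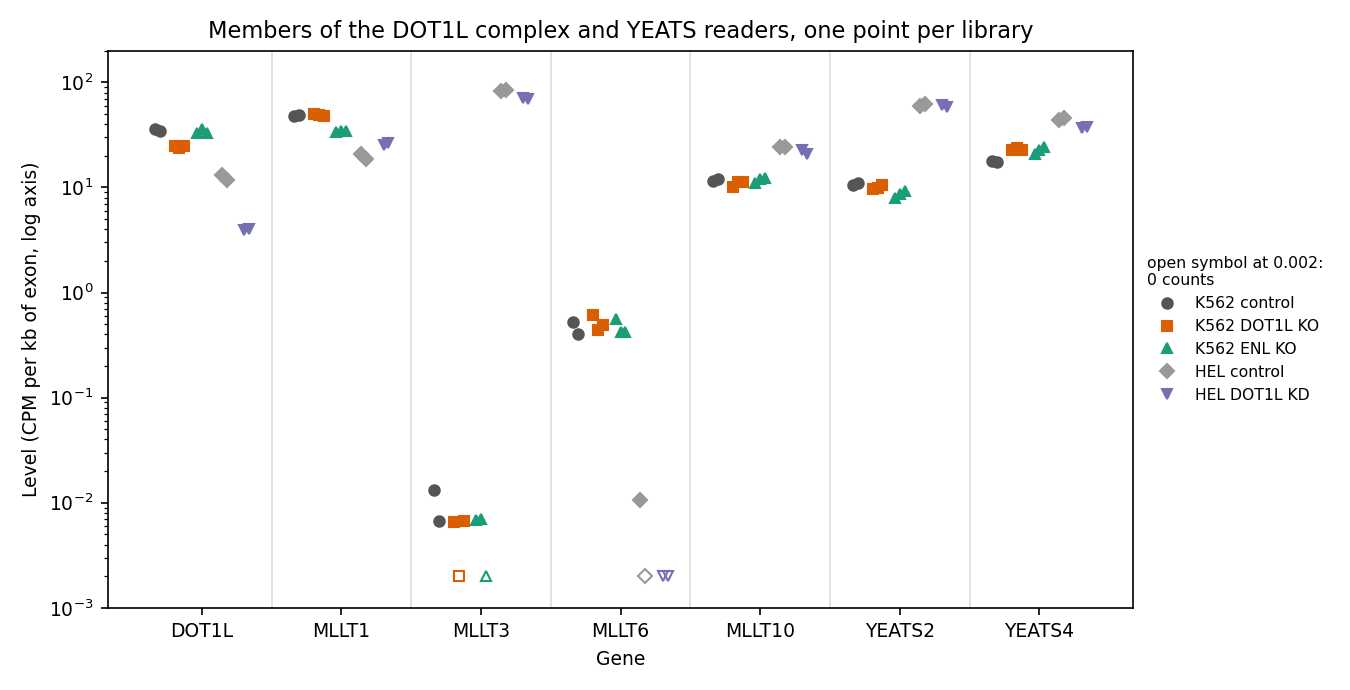
Level of each member in CPM per kb of exon on a log axis, with 1 point per library and open symbols at 0.002 for libraries with 0 counts. MLLT1 and DOT1L are highest in K562 (48.0 and 35.3 in the control) and MLLT3 and YEATS2 in HEL (84.0 and 60.5), while MLLT3 in K562 and MLLT6 in HEL lie at or near 0 counts.

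For the 3 members past the threshold in at least 2 of the 3 comparisons with a control, the genes of most similar pattern were sought. Likeness was the root mean square difference, over 12 libraries, of log2(CPM + 1) minus its mean in the controls of the same line, among 8987 genes. For DOT1L these were MITF, a transcription factor of melanocytes and mast cells, and SHLD2, a subunit of the shieldin complex, each at 0.113. Their log2 fold changes in the DOT1L KO, ENL KO and HEL KD were -0.48, -0.08 and -1.93 for MITF and -0.43, -0.16 and -1.58 for SHLD2. For MLLT1 they were KIF3A, a kinesin motor subunit, at 0.0624 (0.04, -0.49 and 0.43) and GNPDA1, a glucosamine-6-phosphate deaminase, at 0.0721 (-0.05, -0.47 and 0.44). For YEATS4 they were LAPTM4B, a lysosomal membrane protein, at 0.0579 (0.33, 0.38 and -0.26) and OS9, a lectin of the endoplasmic reticulum, at 0.0636 (0.40, 0.36 and -0.22). These genes were picked for their likeness, so their values describe the match and carry no test.

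Partner genes of the members were counted in 4 lists: direct partners, the super elongation complex, the ATAC complex and the SRCAP and TIP60 complexes. Counting each gene once, 20 of 44 passed the threshold in the DOT1L KO (10 higher, 10 lower), 19 of 44 in the ENL KO (12 higher, 7 lower) and 27 of 43 in the HEL KD (17 higher, 10 lower). These are 45.5%, 43.2% and 62.8%, near the 51.1%, 41.0% and 55.0% of all tested genes. Without K562 control replicate 1 the first count was 11, and calls over all genes fell as well, from 7305 to 5691, the lone control being assumed to vary like the other groups. The HEL count was 16 with DESeq2.

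Among direct partners of the members, 3 of 10 passed in the DOT1L KO (1 higher, 2 lower), 4 in the ENL KO (2 each way) and 5 in the HEL KD (all higher), with median log2 fold changes of 0.05, 0.03 and 0.11 against 0.01, 0.00 and 0.01 over all genes. Over all tested genes 51.1%, 41.0% and 55.0% passed, and 27.0% passed as higher in the HEL KD. Passing genes were thus no more common in the list than over all tested genes. BCOR, a corepressor that binds MLLT3, fell by 0.30 in the DOT1L KO (edgeR adjusted p 0.00145) and rose by 0.41 in the ENL KO (edgeR adjusted p 0.000197). CBX8, a Polycomb protein that binds MLLT1 and MLLT3, rose by 0.74 in the ENL KO (edgeR adjusted p 0.000397). Its rise of 0.42 in the DOT1L KO (edgeR adjusted p 0.0143) was lost without K562 control replicate 2 (0.29, edgeR adjusted p 0.168). NPM1, a nucleolar chaperone, fell by 0.31 in the DOT1L KO (edgeR adjusted p 0.00123). AFF1, a scaffold of the super elongation complex, fell by 0.57 in the ENL KO (edgeR adjusted p 3.82e-05). KMT2A, the methyltransferase of histone H3 lysine 4 whose fusions join these members, rose by 0.26 in the HEL KD (edgeR adjusted p 5.43e-10). TRRAP, a scaffold of the TIP60 complex, passed in the ENL KO (-0.36, edgeR adjusted p 0.00392) and the HEL KD (0.14, edgeR adjusted p 0.0181). Neither call of TRRAP held throughout. It was lost in the ENL KO without K562 control replicate 2 (-0.30, edgeR adjusted p 0.0566) and in HEL without control replicate 1 (0.07, edgeR adjusted p 0.331) or KD replicate 1 (0.09, edgeR adjusted p 0.212), with DESeq2 (0.13, adjusted p 0.2) and with no filter on low counts (0.13, edgeR adjusted p 0.141).

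In the super elongation complex, which MLLT1 and MLLT3 join, 3 of 10 genes passed in the DOT1L KO (1 higher, 2 lower), 7 in the ENL KO (4 higher, 3 lower) and 7 in the HEL KD (3 higher, 4 lower). The medians were -0.01, 0.11 and -0.14. The counts are 30.0%, 70.0% and 70.0% of the list, against 51.1%, 41.0% and 55.0% of all tested genes. The counts of both K562 knockouts include ELL3 and EAF2, with mean levels of only 1.59 and 3.73 CPM in K562. ELL2, an elongation factor, rose by 0.58 in the ENL KO (edgeR adjusted p 9.52e-05) and fell by 0.33 in the HEL KD (edgeR adjusted p 0.000427). CDK9, the kinase of P-TEFb, fell by 0.28 in the ENL KO (edgeR adjusted p 0.00456) and rose by 0.37 in the HEL KD (edgeR adjusted p 2.01e-05). Its cyclin CCNT1 fell by 0.53 in the HEL KD (edgeR adjusted p 2.38e-14), and EAF2, a partner of ELL, fell by 0.69 there (edgeR adjusted p 3.23e-07). In K562 EAF2 was low, at 3.19 CPM in the control, 1.87 with DOT1L KO and 5.94 in the ENL KO. EAF2 rose by 0.89 in the ENL KO (edgeR adjusted p 0.00104), and its -0.75 in the DOT1L KO (edgeR adjusted p 0.00535) became -0.61 without K562 control replicate 2 (edgeR adjusted p 0.0682). CCNT2, the other cyclin, rose by 0.24 in the HEL KD (edgeR adjusted p 4.28e-05). Its calls in K562, 0.28 in the DOT1L KO (edgeR adjusted p 0.0482) and 0.34 in the ENL KO (edgeR adjusted p 0.0267), were lost without K562 control replicate 1 (0.17, adjusted p 0.372, and 0.23, adjusted p 0.254). They also missed the threshold without DOT1L KO replicate 2 (0.27, adjusted p 0.105) or 3 (0.19, adjusted p 0.182), and without ENL KO replicate 2 (0.34, adjusted p 0.0649) or 3 (0.29, adjusted p 0.0739), respectively.

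In the ATAC complex, which holds YEATS2, 4 of 10 genes passed in each knockout (3 higher, 1 lower) and 6 of 9 in the HEL KD (4 higher, 2 lower), with medians of 0.13, 0.13 and 0.10. The counts are 40.0%, 40.0% and 66.7% of the genes tested in the complex, against 51.1%, 41.0% and 55.0% of all tested genes. The gene not tested in HEL, TADA2A, is listed on the same alternate contig as MLLT6 and had 7 to 9 counts per HEL library. KAT2B, one of its acetyltransferases, rose by 0.91 in the DOT1L KO (edgeR adjusted p 1e-07) and by 0.56 in the ENL KO (edgeR adjusted p 1.83e-05). Its level was 45.4 ± 0.446 CPM in the control (SD, n = 2), 85.0 ± 2.11 with DOT1L KO and 66.9 ± 4.15 in the ENL KO (SD, n = 3 each). KAT2A, its paralogue, had -0.25 (edgeR adjusted p 0.0049) and -0.19 (edgeR adjusted p 0.0277), and it rose by 0.23 in the HEL KD (edgeR adjusted p 0.00011). Without K562 control replicate 1 its values were -0.23 in the DOT1L KO (adjusted p 0.0502) and -0.16 in the ENL KO (adjusted p 0.175). The ENL KO value was -0.21 without control replicate 2 (adjusted p 0.0759) and -0.15 without ENL KO replicate 2 (adjusted p 0.108). KAT14 had 0.33 in the DOT1L KO (edgeR adjusted p 0.0109) and kept its size but missed the threshold without control replicate 1 (0.32, adjusted p 0.07) or 2 (0.33, adjusted p 0.0557). TADA3 rose by 0.25 in the HEL KD (edgeR adjusted p 4.38e-07), and its 0.26 in the ENL KO (edgeR adjusted p 0.00392) missed the threshold without control replicate 2 (0.22, adjusted p 0.0612). DR1 and ZZZ3, further subunits, fell by 0.64 (edgeR adjusted p 1.67e-19) and 0.18 (edgeR adjusted p 0.000104) in the HEL KD. MBIP had 0.27 there (edgeR adjusted p 0.0102) and was lost without HEL control replicate 1 (0.16, adjusted p 0.22) or KD replicate 1 (0.25, adjusted p 0.0592), with DESeq2 (0.27, adjusted p 0.149) and with no filter on low counts (0.26, adjusted p 0.0713).

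In the SRCAP and TIP60 complexes, which hold YEATS4, 10 of 17 genes passed in the DOT1L KO (5 each way), 6 in the ENL KO (3 each way) and 11 in the HEL KD (7 higher, 4 lower), with medians of 0.08, 0.04 and 0.08. The counts are 58.8%, 35.3% and 64.7% of the list, against 51.1%, 41.0% and 55.0% of all tested genes. ACTR6, an actin-related subunit of SRCAP, fell by 1.06 in the DOT1L KO (edgeR adjusted p 2.76e-06), from 43.3 ± 1.97 CPM (SD, n = 2) to 20.7 ± 1.97 (SD, n = 3). Its -0.39 in the ENL KO (edgeR adjusted p 0.0114) was lost without K562 control replicate 1 (-0.34, adjusted p 0.0976). DMAP1, shared by both complexes, rose by 0.68 in the DOT1L KO (edgeR adjusted p 1.37e-05), and EPC1, of the TIP60 complex, rose by 0.43 (edgeR adjusted p 0.00092) but fell by 0.58 in the HEL KD (edgeR adjusted p 4.36e-11). ACTL6A, the actin-related BAF53A, rose by 0.44 in the ENL KO (edgeR adjusted p 9.76e-05). MORF4L1, a chromodomain subunit, fell by 0.51 in the ENL KO (edgeR adjusted p 3.28e-05) and by 0.85 in the HEL KD (edgeR adjusted p 5.25e-28). Its -0.22 in the DOT1L KO (edgeR adjusted p 0.0104) was smaller and missed the threshold without K562 control replicate 1 (-0.20). MEAF6 fell by 0.84 in the HEL KD as well (edgeR adjusted p 3.76e-20).

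Other named calls of these complexes were near the threshold or missed it under some alternatives. RUVBL2, an AAA+ ATPase, had -0.39 in the DOT1L KO (edgeR adjusted p 0.00492) and was lost without K562 control replicate 1 (-0.27, adjusted p 0.0926). VPS72, which binds the histone variant H2A.Z, had 0.26 in the ENL KO (edgeR adjusted p 0.0385) and missed the threshold without control replicate 2 (0.16, adjusted p 0.329), without each ENL KO library in turn (0.25 to 0.26, adjusted p 0.0561 to 0.0859) and with upper-quartile scaling (0.23, adjusted p 0.0707). In the HEL KD, MRGBP had 0.28 (edgeR adjusted p 0.00703) and missed the threshold without KD replicate 1 (0.26, adjusted p 0.0511) and with DESeq2 (0.27, adjusted p 0.125). MRGBP went the other way in the DOT1L KO, at -0.24 (edgeR adjusted p 0.00629) and, without K562 control replicate 1, -0.21 (edgeR adjusted p 0.0683). In the HEL KD, DMAP1 had 0.26 (edgeR adjusted p 0.0265). It missed the threshold without control replicate 1 (0.25, adjusted p 0.0887), control replicate 2 (0.27, adjusted p 0.0598) or KD replicate 2 (0.17, adjusted p 0.29), with DESeq2 (0.26, adjusted p 0.221) and with no filter (0.25, adjusted p 0.0816).

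**Figure D4:**
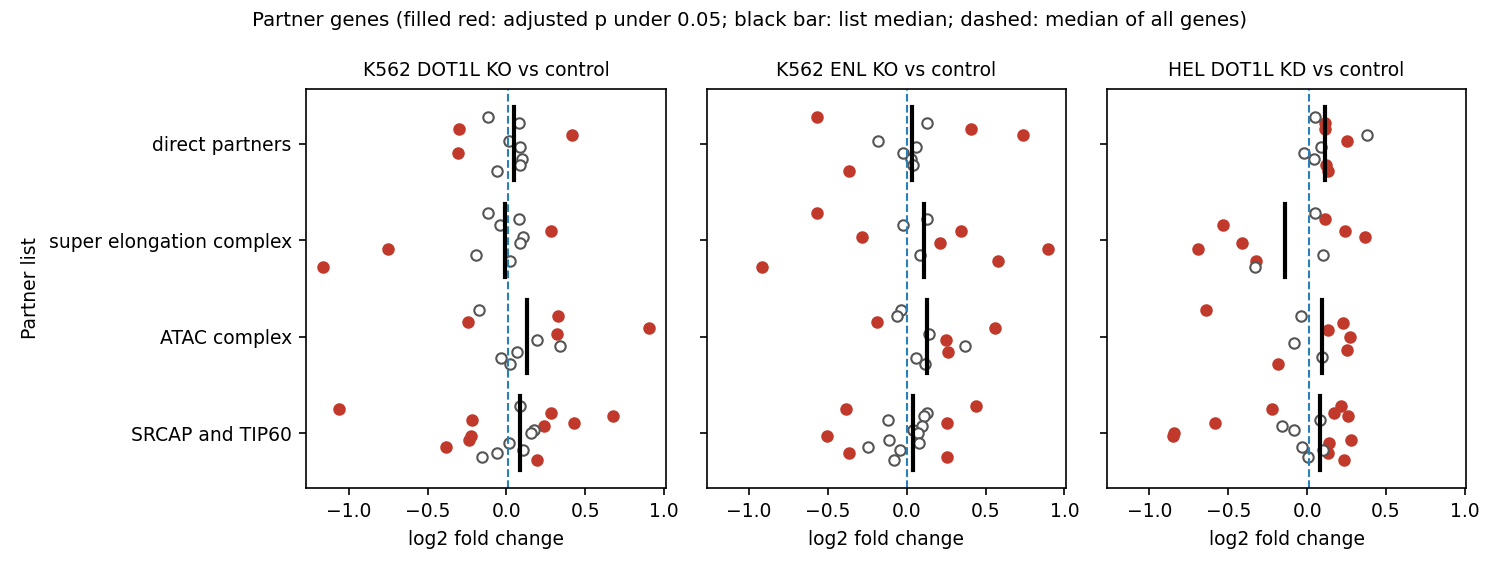
Log2 fold change of each tested partner gene in 3 comparisons, by list, with filled red points past an adjusted p of 0.05, a black bar at the list's median and a dashed line at the median of all genes. Each list holds points on both sides of 0, and list medians lie between -0.14 and 0.13.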

How the data were processed

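The authors deposited raw counts per gene, as read counts for HEL and fragment counts for K562 per the file headers, with exon positions and exonic lengths. Libraries were strand-specific polyA libraries made with dUTP, per the labels' protocols. The submitters' processing notes name fastp 0.13.1, Bowtie2 2.3.4.1, HISAT2 2.1.0, featureCounts 1.6.1 and the builds hg38 and hg19 without roles. The strand setting is not given in the sources used here. Contig names and positions of the members are those of hg38. The 61 samples of other assays were not analysed here.

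Genes with low counts were removed by filterByExpr (edgeR 4.0.16, R 4.3.3) at a minimum of 10 counts and a total of 15, and libraries were scaled by TMM. The main test was the quasi-likelihood test of edgeR, with 8 K562 libraries in 1 fit and 4 HEL libraries in another, and Benjamini-Hochberg adjustment at 0.05 over all genes tested. The planned K562 fit had 9 libraries, of which 1 column was a copy. The SE came from the F statistic. Levels per kb are TMM-scaled CPM divided by exonic kb (both listed copies for MLLT6). The floor is 3 counts and covers counting error only. Biological coefficients of variation were 6.34% in K562 and 1.83% in HEL. Promoters came from RefSeq (GRCh38.p14), where 6 of the 7 members matched. The fit was also run on simulated counts with known changes of 0.5 and of 1 (log2). For DOT1L KO, 98 and 95 of 13943 genes were changed, and 54.1% and 86.3% of them were recovered. For ENL KO, 97 and 99 of 13961 were changed, with 68% and 83.8% recovered. For HEL, 98 and 100 of 12511 were changed, with 79.6% and 89% recovered. In the real comparisons 51.1%, 41.0% and 55.0% of genes passed. Recovery with that many changed genes was not tested. The simulated counts were drawn from the type of model that edgeR fits, and calls among the unchanged genes are not given here.

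Named were all members, per partner list and comparison with a control up to 2 increases and 2 decreases past the threshold with at least 5 CPM on average, the 2 genes most similar in pattern to each member past the threshold in at least 2 comparisons, and chromosome neighbours past it with a log2 fold change of 1 or more in size. PLEKHJ1, TADA2A, opposite calls of a named partner in another comparison and the DOT1L KO call of MORF4L1 were added after their values were seen. The members and all lists were chosen with earlier results of these data known. Alternatives were other scalings, DESeq2 1.42.0, no filter, a replicate block, other sample sets and leaving out each library; leaving out genes listed on more than 1 contig was added after seeing the data. Share tests used scipy 1.17.1.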

Additional observations from a re-analysis of the deposited data

Results flagged for a closer look

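For 3 members the change on DOT1L depletion differed between the cell lines in the test of the difference itself (edgeR's quasi-likelihood test of the interaction, Benjamini-Hochberg adjustment). DOT1L, the depleted gene, is among them. The change in HEL minus the change in K562 was -1.10 for DOT1L (SE 0.093, adjusted p 5.1e-09), which fell in both KD libraries and in all 3 KO libraries. It was 0.39 for MLLT1 (SE 0.081, adjusted p 0.000588), which was higher in both HEL KD libraries and overlapped the control in K562. It was -0.63 for YEATS4 (SE 0.097, adjusted p 2.19e-05), which was lower in both HEL KD libraries and higher in all 3 K562 DOT1L KO libraries. The cell line cannot be told apart from knockdown against knockout and from read against fragment counting. Each gene was given 1 spread for both lines, although the lines differed in spread.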

How the results depend on the processing

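Of the calls on members, the decreases of DOT1L in its KO and KD, of MLLT1 and YEATS2 in the ENL KO and of MLLT3 in HEL, the increase of MLLT1 in HEL, the calls of YEATS4 and the 3 interaction calls kept their direction and side of the threshold under every alternative run. The log2 fold change ranged from -0.57 to -0.48 for DOT1L in the DOT1L KO, from -0.51 to -0.47 for MLLT1 in the ENL KO, and from -1.72 to -1.57 for DOT1L in HEL. MLLT10 in HEL did not keep its call, with an adjusted p of up to 0.236 over 10 alternatives, 4 of which missed the threshold. DESeq2 called 4561 genes in HEL in place of 6951 and 16 partner genes in place of 27, and the cause was not tested. Upper-quartile scaling moved the share of higher genes among those called in HEL from 49.1% to 61.4%. With the replicate number as a block, 4 members passed in the DOT1L KO in place of 2, adding MLLT10 (-0.13, edgeR adjusted p 0.0421) and YEATS2 (-0.14, edgeR adjusted p 0.0254), and MLLT10 passed between the knockouts (-0.11, edgeR adjusted p 0.0389). The block changed no other call on members. The labels do not say that the numbers pair libraries. Deviations from the group mean of same-numbered libraries correlated at 0.449 and 0.288 between control and DOT1L KO (unlike numbers -0.449 to 0.27). Between control and ENL KO the values were 0.457 and 0.086 (unlike numbers -0.457 to 0.41). Between the knockouts they were 0.675, 0.0949 and 0.357 (unlike numbers -0.596 to 0.384), where DOT1L KO replicate 2 was closest to ENL KO replicate 3. The HEL pairs gave -0.0309. In a group of 2 libraries the deviations mirror each other, so values that involve the K562 controls or HEL are not independent. Leaving out 1 library at a time gave 11 to 20 partner genes in the DOT1L KO (20 with all) and 14 to 24 in the interaction (22 with all), lowest without K562 control replicate 1 and HEL control replicate 1, respectively. In raw counts with no division by length, the HEL difference in the share of MLLT3 was -6.06 percentage points in place of -7.92, and that of MLLT6, at the floor in all HEL libraries, -0.0487 in place of -0.0221. Where leaving out a library left 1 in a group, that library was assumed to vary like the other groups. MLLT3 in K562 and MLLT6 in HEL were under 3 counts in every library, so a change in them was not detectable, and for MLLT6 the part of depth and of the listing on 2 contigs was not tested.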

Other observations

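Markers of other blood and tissue cell types are given here as values, and their part in the results on the members was not tested. The 6 megakaryocytic markers summed to 7.35 to 9.93 CPM in the K562 controls, 33.6 to 35.3 in the DOT1L KO and 29.4 to 36.9 in the ENL KO, where ITGA2B and ITGB3, the subunits of the fibrinogen receptor, had at least 5 CPM in the knockouts and GP9, PF4 and PPBP were at or under 3 counts. Of the 5 monocytic and granulocytic markers, LYZ alone had at least 5 CPM in any group and ELANE was at or under 3 counts in all groups. Their sum was 33.7 to 36.5 CPM in the K562 controls, 292 to 323 in the DOT1L KO, 19.8 to 20.7 in the ENL KO, 44.6 to 51.0 in the HEL controls and 47.3 to 49.9 in the KD. Of the 5 lymphoid markers, CD3D alone had at least 5 CPM, in K562, and MS4A1 was at or under 3 counts in all groups. Their sum was 53.9 to 55.6 CPM in the K562 controls, 17.3 to 21.8 in the DOT1L KO and 62.2 to 73.2 in the ENL KO, and 1.84 to 1.98 and 1.03 to 1.22 CPM in the HEL controls and KD. The 6 epithelial and fibroblast markers summed to 1162 to 1171 CPM in the K562 controls, 1095 to 1199 in the DOT1L KO and 1231 to 1383 in the ENL KO, with EPCAM, KRT8, KRT18 and COL1A1 at 5 CPM or more. In HEL they summed to 35.9 to 37.5 CPM in the controls and 64.9 to 71.5 in the KD, with KRT8 and KRT18 at 5 CPM or more and COL1A1, COL3A1 and DCN at or under 3 counts.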
